A study of Homo sapiens with 12 samples.

Results

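The bone morphogenetic protein (BMP) response was followed through 10 genes in MCF10A, a human breast epithelial cell line that does not form tumours. The genes were ID1, ID2, ID3 and ATOH8, the SMAD genes SMAD6, SMAD7 and SMAD9, the ligand genes BMP2 and BMP4, and BAMBI. They were picked by name from the 23459 genes of the count table, with their levels across the 4 groups already in view, and all 10 passed the filter on low counts that left 14775 genes for testing. ATOH8 was chosen on its response to the manipulations, so its values are given as a description with no test. The other members entered as textbook genes of the pathway, also with their levels in view, and their adjusted p-values do not account for this.

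All cells carried a doxycycline-inducible allele of YAP5SA, a form of the coactivator YAP that Hippo kinases cannot inactivate. They had been infected with an empty vector or with a vector that overexpresses JUN, a subunit of the AP-1 transcription factor. The cells then received doxycycline at 100 ng/ml (Dox) or its solvent ethanol (EtOH), which gave 4 groups of 3 libraries, named vector EtOH and vector Dox for the empty vector and JUN EtOH and JUN Dox for the JUN vector. The series was made to ask how JUN affects the transcriptional output of YAP, and the YAP5SA allele is present without induction in both EtOH groups. The study's methods call the replicates biological, while the labels name no separate cultures, so the p-values measure the spread between these libraries.

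BMP ligands bind pairs of type I and type II receptor kinases at the cell surface, and the activated receptors phosphorylate SMAD1, SMAD5 and SMAD9. These form a complex with SMAD4 that enters the nucleus and binds GC-rich sites near its target genes. The ID genes are the most widely used readout of this pathway. ID proteins have a helix-loop-helix domain but no DNA-binding region, and they hold E proteins away from DNA. SMAD6, SMAD7 and BAMBI are feedback inhibitors that the pathway induces against itself. ATOH8 is a basic helix-loop-helix transcription factor that responds to BMP signalling in several tissues.

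The promoter sequences of 5 members are shown, those of BAMBI, BMP4 and SMAD6 because they hold the SMAD motifs that were found, and those of ATOH8 and ID1 because both genes were low after induction in vector and in JUN cells. They cover the 250 bases before the RefSeq start on GRCh38.p14, 5′ to 3′ on the strand of the gene, and capitals mark the letters GGCGCC (the GC-rich site of SMAD1 and SMAD5) or GTCTAGAC (the SMAD4 palindrome).
ATOH8 (chr2:85753741-85753990, plus strand): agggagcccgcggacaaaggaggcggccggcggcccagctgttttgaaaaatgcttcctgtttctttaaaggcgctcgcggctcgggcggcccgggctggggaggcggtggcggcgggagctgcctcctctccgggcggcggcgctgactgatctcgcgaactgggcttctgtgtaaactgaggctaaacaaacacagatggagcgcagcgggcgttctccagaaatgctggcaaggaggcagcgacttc
ID1 (chr20:31605039-31605288, plus strand): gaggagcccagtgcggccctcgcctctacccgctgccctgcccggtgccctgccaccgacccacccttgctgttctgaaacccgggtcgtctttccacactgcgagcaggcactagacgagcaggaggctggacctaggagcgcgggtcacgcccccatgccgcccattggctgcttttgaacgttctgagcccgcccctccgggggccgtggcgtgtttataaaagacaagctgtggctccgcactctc
SMAD6 (chr15:66701986-66702235, plus strand): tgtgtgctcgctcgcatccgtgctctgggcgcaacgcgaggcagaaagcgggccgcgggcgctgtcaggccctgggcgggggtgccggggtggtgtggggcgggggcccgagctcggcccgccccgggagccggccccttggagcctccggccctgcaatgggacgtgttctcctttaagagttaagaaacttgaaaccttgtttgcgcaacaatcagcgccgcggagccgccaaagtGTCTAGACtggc
BAMBI (chr10:28677271-28677520, plus strand): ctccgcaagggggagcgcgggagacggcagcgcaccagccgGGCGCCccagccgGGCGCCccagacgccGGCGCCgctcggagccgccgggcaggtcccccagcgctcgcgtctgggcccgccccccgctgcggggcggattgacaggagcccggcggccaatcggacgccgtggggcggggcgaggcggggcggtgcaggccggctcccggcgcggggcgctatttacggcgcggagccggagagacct
BMP4 (chr14:53955051-53955300, minus strand): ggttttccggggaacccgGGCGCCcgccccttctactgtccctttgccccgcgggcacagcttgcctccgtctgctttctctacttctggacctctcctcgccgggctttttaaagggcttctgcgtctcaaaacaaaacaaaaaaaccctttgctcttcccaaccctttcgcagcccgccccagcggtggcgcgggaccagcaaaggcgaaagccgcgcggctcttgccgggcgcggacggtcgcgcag

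BAMBI held GGCGCC at 3 places, the nearest of them at bases -181 to -176 from the start. BMP4 held GGCGCC at bases -232 to -227, and 16.1% of 27305 RefSeq promoters of this length hold these letters on either strand. The palindrome GTCTAGAC lay at bases -12 to -5 of SMAD6 and is found in 0.176% of all promoters. ATOH8 and ID1 held neither of these letter runs in this window. The AP-1 letters TGANTCA (6.6% of all promoters) and the TEAD letters GGAATG (11.9%) were in 0 of the 9 member promoters with an entry. The E-box CANNTG, a class of site that E proteins and many other helix-loop-helix factors bind, was in 4 of the 9 (ATOH8, ID2, SMAD7 and SMAD9) and in 62.2% of all promoters. Where several starts were listed for a gene only the first was read. A letter match is a description and not a bound site.

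Library depth was 18594867 to 28993487 counts. Levels are CPM, the counts of a gene scaled to library size, with library sizes adjusted by the TMM method. In the empty vector cells JUN was at 47.6 ± 10.5 CPM (SD, n = 3) with EtOH and 190 ± 4.15 with Dox, and in the JUN cells 1278 ± 187 with EtOH and 1248 ± 92.2 with Dox. YAP1 was at 179 ± 10.5 and 236 ± 31.5 CPM in the former and 234 ± 20.9 and 280 ± 79.3 CPM in the latter, and reads of the YAP5SA allele and of the cell's own YAP1 cannot be told apart. Of the 8 basal epithelial markers, KRT5 lay at 2853 to 4613 CPM in the group means, while KRT14 (66.7 to 481) and TP63 (5.92 to 27.4) were lowest in vector Dox and highest in JUN EtOH. The hormone receptor genes ESR1 and PGR were at most 0.685 and 0.0909 CPM. Among markers of other cell types PTPRC, CD3E and DES were at or near 0, the smooth muscle gene MYH11 lay at 12.2 to 19.0 CPM, and the endothelial gene PECAM1 was at 1.75 CPM in vector EtOH and at 0.0601 in vector Dox. The part of these marker shifts in the results was not tested, and in bulk RNA fewer cells of a kind and less RNA per cell cannot be told apart.

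The members covered a wide span of abundance. Per kilobase of exon, ID1 averaged 142 CPM over the 12 libraries, above 98.3% of the tested genes, followed by ID3 at 22.4 CPM and BAMBI at 7.14 CPM. SMAD7 (2.12 CPM), SMAD9 (2.08), BMP2 (1.38), ID2 (0.984), ATOH8 (0.752) and BMP4 (0.317) were lower. SMAD6 was the least abundant member by this measure at 0.169 CPM per kilobase, above 6.42% of the tested genes. The length used is the union of all annotated exons of a gene, and the order depends on it. Without scaling to length, BMP4 (mean 0.980 CPM over the 12 libraries) lay below SMAD6 (1.45 CPM). All further CPM values are per library and not per length. 

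**Figure D1:**
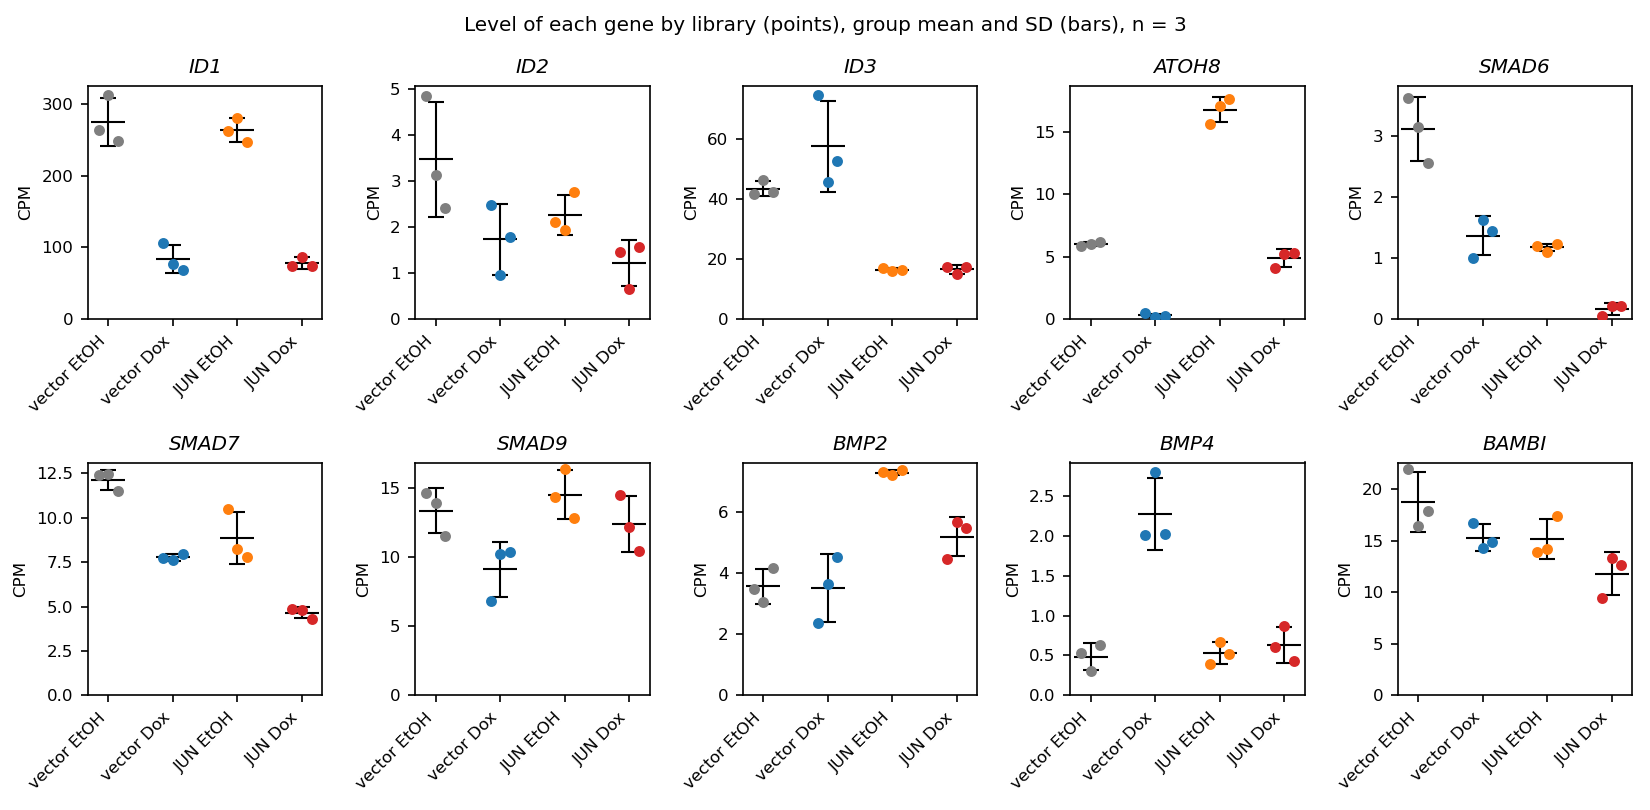
CPM (linear axes from 0, a separate scale for each gene) of the 10 genes in the 4 groups, with points for libraries and bars for the mean and SD (n = 3). ID1 is low in both Dox groups, ID3 is low in both JUN groups, BMP4 stands high only in the 3 vector Dox libraries, and ATOH8 is near 0 in vector Dox and highest in JUN EtOH.

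YAP5SA induction in vector cells lowered ID1, SMAD6 and SMAD7 and raised BMP4, and these calls held under every alternative in which the gene was tested. ID2 and SMAD9 were also called lower and ID3 higher, but these calls were lost when some single libraries were left out. Among the 9 members other than ATOH8, 5 were called lower and 2 higher at an adjusted p under 0.05 (edgeR quasi-likelihood test, Benjamini-Hochberg over all genes). Over all tested genes 14.4% were called lower and 15.6% higher. The median log2 fold change of these 9 genes was -0.55, against 0.0072 over all tested genes. Gene positions in the following sentences are on GRCh37, the assembly of hg19.

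ID1 (chr20:30193086-30194318) was at 264, 313 and 248 CPM in the vector EtOH libraries and 106, 77.3 and 67.7 CPM in vector Dox. All 3 induced libraries lay below all 3 controls, and ID1 fell by 1.72 on the log2 scale (SE 0.15, adjusted p = 8.08e-07), a 3.29-fold lower level.

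ID2 (chr2:8818975-8824591), a second inhibitor of E proteins, was at 4.87, 3.14 and 2.42 CPM in vector EtOH and 2.49, 0.946 and 1.78 CPM in vector Dox. The groups overlapped, and ID2 fell by 1.01 on the log2 scale (SE 0.36, adjusted p = 0.0447). The call was lost without any of 7 libraries, namely vector EtOH replicates 1 and 2, vector Dox replicates 2 and 3 and each JUN EtOH library (adjusted p up to 0.228 without vector EtOH replicate 1). It was also lost in a fit to the compared libraries alone (0.0651).

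ID3 (chr1:23884417-23885992) went the other way, from 41.7, 46.4 and 42.3 CPM to 74.7, 45.6 and 52.6 CPM, with a log2 fold change of 0.41 (SE 0.145, adjusted p = 0.046). Vector Dox replicate 1 stood apart at 74.7 CPM and the groups overlapped. The call was lost in 10 of the 12 fits with a library left out, all but those without vector Dox replicate 2 or JUN Dox replicate 3, and without vector Dox replicate 1 the change was 0.17 (adjusted p = 0.241). It was also lost with upper-quartile factors (adjusted p = 0.0784), with a minimum mean of 5 CPM (0.0646) and in a fit to the compared libraries alone (0.129).

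ATOH8 (chr2:85978467-86018506) was at 5.85, 6.04 and 6.15 CPM in vector EtOH and 0.436, 0.180 and 0.248 CPM in vector Dox, from 10, 4 and 6 reads. The 3 induced libraries were far below the controls, with a fitted log2 fold change of -4.36 (SE 0.24), or 20.5-fold lower. This fall is the value that ATOH8 was chosen on. Its size rests on few reads in the induced group.

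The SMAD genes were lower after induction of vector cells. SMAD6 (chr15:66994574-67075187), which blocks BMP receptor signalling most directly, went from 3.61, 3.14 and 2.56 CPM to 1.00, 1.62 and 1.45 CPM without overlap (log2 fold change -1.19, SE 0.267, adjusted p = 0.00348). SMAD7 (chr18:46446223-46477335), which inhibits both the BMP and the TGF-beta branch, went from 12.4, 12.5 and 11.5 CPM to 7.72, 7.61 and 7.97 CPM, again without overlap (-0.64, SE 0.132, adjusted p = 0.00194). SMAD9 (chr13:37418968-37495024), a receptor-regulated SMAD and itself a BMP response gene, fell from 14.7, 13.9 and 11.6 CPM to 6.84, 10.2 and 10.4 CPM (-0.55, SE 0.174, adjusted p = 0.0264). The SMAD9 groups did not overlap, but its call was lost without vector EtOH replicate 1 (adjusted p = 0.0991), vector EtOH replicate 2 (0.0675) or vector Dox replicate 1 (0.0827).

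The ligand genes differed from each other. BMP4 (chr14:54416454-54425479) was at 0.532, 0.299 and 0.628 CPM in vector EtOH and 2.01, 2.79 and 2.02 CPM in vector Dox. Every induced library was above every control, and BMP4 rose by 2.19 on the log2 scale (SE 0.342, adjusted p = 0.000207), a 4.57-fold higher level. BMP2 (chr20:6748333-6760893) was at 3.50, 3.04 and 4.17 CPM against 2.35, 3.65 and 4.54 CPM, and the groups overlapped fully (log2 fold change -0.02, SE 0.214, adjusted p = 0.951). BAMBI (chr10:28966439-28971861), a receptor decoy without a kinase, was at 22.0, 16.5 and 17.9 CPM against 16.7, 14.3 and 14.9 CPM (-0.30, SE 0.15, adjusted p = 0.153). BMP4 shares 506 exon bases with a long noncoding RNA gene on the opposite strand and ID2 shares 145 with ID2-AS1. The use of strand in counting is not stated, so reads of these pairs cannot be told apart.

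JUN overexpression without induction left ID1 near its control level and lowered ID3, SMAD6 and SMAD7, while BMP2 was higher. Of the 9 members other than ATOH8, 3 were called lower and 1 higher. Over all tested genes 18.9% were called lower and 20.1% higher, so a call in this comparison was common. The median log2 fold change was -0.31 for the 9 genes and 0.00056 for all tested genes. This comparison shares the vector EtOH libraries with the induction of vector cells.

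ID3 was at 17.1, 15.8 and 16.4 CPM in JUN EtOH, below all 3 vector EtOH libraries (41.7 to 46.4 CPM), and fell by 1.40 on the log2 scale (SE 0.151, adjusted p = 6.24e-06). ID1 was at 263, 280 and 247 CPM in JUN EtOH, within the span of the controls apart from the lowest library (log2 fold change -0.06, SE 0.146, adjusted p = 0.761). The fit allowed no call for ID2 at 2.11, 1.94 and 2.77 CPM (-0.63, SE 0.348, adjusted p = 0.166). ID3 was thus low in JUN cells and ID1 low after induction. ATOH8 was at 15.7, 17.1 and 17.6 CPM, above every vector EtOH library, with a fitted log2 fold change of 1.48 (SE 0.152).

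SMAD6 was at 1.19, 1.10 and 1.22 CPM in JUN EtOH against 2.56 to 3.61 CPM in the controls, a fall of 1.41 on the log2 scale (SE 0.272, adjusted p = 0.00105). SMAD7 was at 10.5, 8.26 and 7.79 CPM, below the controls at 11.5 to 12.5 CPM (-0.45, SE 0.131, adjusted p = 0.014). Its call was lost without JUN EtOH replicate 2 (adjusted p = 0.0603), without JUN EtOH replicate 3 (0.0621) and after correction for GC content (0.0545). BMP2 was at 7.30, 7.20 and 7.37 CPM, above every control at 3.04 to 4.17 CPM, and rose by 1.03 on the log2 scale (SE 0.205, adjusted p = 0.00135). The remaining members passed no threshold, with log2 fold changes of 0.12 for SMAD9 (adjusted p = 0.609), 0.11 for BMP4 (0.858) and -0.31 for BAMBI (0.115).

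**Figure D2:**
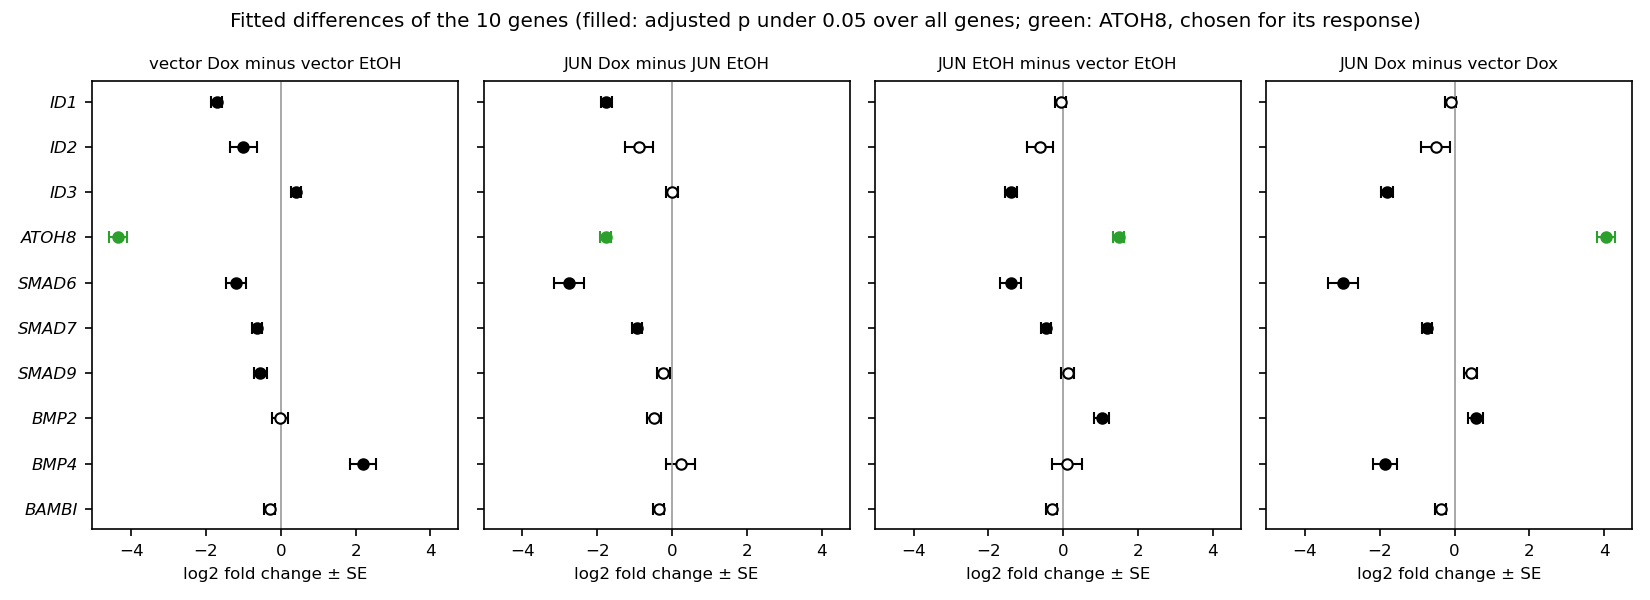
Fitted log2 fold changes (x axis) with SE bars of the 10 genes (y axis) in the 4 pairwise comparisons, filled where the adjusted p over all genes was under 0.05, with ATOH8 in green because it was chosen on its response. ID1 is lower in both inductions and near 0 in both JUN comparisons, ID3 is lower in both JUN comparisons, and SMAD6 and SMAD7 are lower in all 4.

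Induction in JUN cells lowered ID1, SMAD6 and SMAD7. Of the 9 members other than ATOH8, 3 were called lower and 0 higher, and over all tested genes 10.3% were called lower and 11.2% higher. An unadjusted p under 0.05 was found for 6 of the 9 members and for 4884 of the 14775 tested genes. The median log2 fold change of the 9 genes was -0.48, against 0.0032 over all tested genes. In JUN Dox replicates 1 and 3, the deviations of genes from their group mean correlated with GC content (r = -0.353 and 0.361 across genes). In JUN EtOH replicates 1 and 3 the values were -0.197 and 0.224. The deviations within a group sum to 0 for each gene, so opposite signs follow in part from this centring. The part of this trend in single values was not tested beyond the GC-corrected fit.

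ID1 was at 73.3, 87.1 and 73.7 CPM in JUN Dox, below every JUN EtOH library at 247 to 280 CPM. It was 3.37-fold lower (SE 0.151 on the log2 scale, adjusted p = 1.32e-06), close to the 3.29-fold value of vector cells. SMAD6 dropped to 0.0502, 0.216 and 0.213 CPM, which were 1, 5 and 6 reads, from 1.10 to 1.22 CPM. The fitted fall was 2.76 on the log2 scale (SE 0.4, adjusted p = 0.00019), and its size rests on these few reads. SMAD7 was at 4.86, 4.80 and 4.30 CPM, below every JUN EtOH library, and fell by 0.93 on the log2 scale (SE 0.139, adjusted p = 0.000251).

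ATOH8 was at 4.06, 5.23 and 5.33 CPM in JUN Dox, below all 3 JUN EtOH libraries at 15.7 to 17.6 CPM, with a fitted log2 fold change of -1.78 (SE 0.154). ID3 was at 17.3, 14.9 and 17.3 CPM, inside and around the JUN EtOH range of 15.8 to 17.1 CPM (adjusted p = 0.992). BMP4 stayed low at 0.602, 0.864 and 0.426 CPM, overlapping the 0.396 to 0.674 CPM of JUN EtOH (log2 fold change 0.23, SE 0.388, adjusted p = 0.731). ID2 (1.45, 0.648 and 1.56 CPM) had a value of -0.88 (SE 0.382, adjusted p = 0.119). BMP2 was at 4.46, 5.66 and 5.47 CPM, below every JUN EtOH library, at an adjusted p of 0.1 that became 0.0354 without vector Dox replicate 1 and 0.0384 in a fit to the compared libraries alone. BAMBI at 9.48, 13.3 and 12.7 CPM also lay below every JUN EtOH library without a call (-0.36, SE 0.152, adjusted p = 0.113). SMAD9 was at 14.5, 12.2 and 10.4 CPM and overlapped JUN EtOH (-0.23, SE 0.17, adjusted p = 0.377).

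**Figure D3:**
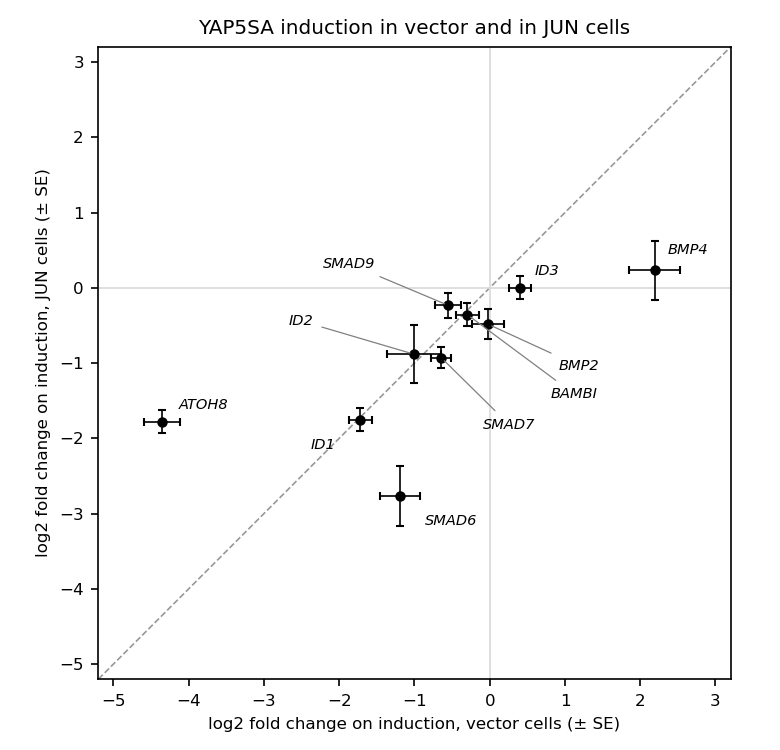
Log2 fold change on YAP5SA induction in vector cells (x axis) against that in JUN cells (y axis), with SE bars and a dashed line where both are equal. ID1 lies on the line at -1.72 and -1.75, ATOH8 lies far left of it at -4.36 and -1.78, BMP4 lies right of it at 2.19 and 0.23, and SMAD6 lies below it at -1.19 and -2.76.

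The difference between the inductions was tested as the interaction term, in which a positive value means a higher (or less negative) log2 change in JUN cells. It called 1.12% of all tested genes in either direction. None of the 9 members other than ATOH8 was among these calls with edgeR or with DESeq2. With edgeR 1330 of the 14775 tested genes had an unadjusted p under 0.05, and so did 2 of the 9 members. These were BMP4, whose induction was lower in JUN cells by 1.96 on the log2 scale (SE 0.524, adjusted p = 0.109, and 0.0596 with DESeq2), and SMAD6, with an interaction of -1.57 (SE 0.497, adjusted p = 0.202). ID1 had an interaction of -0.04 (SE 0.207, adjusted p = 0.989), and the test does not show that the inductions are equal. For ID2 it was 0.12 (SE 0.528, adjusted p = 0.987) and for ID3 -0.40 (SE 0.211, adjusted p = 0.648). SMAD7 had -0.29 (SE 0.192, adjusted p = 0.775) and SMAD9 had 0.32 (SE 0.243, adjusted p = 0.836). BMP2 stood at -0.46 (SE 0.292, adjusted p = 0.755) and BAMBI at -0.06 (SE 0.213, adjusted p = 0.983). ATOH8 had an interaction of 2.58 (SE 0.303), given without a test because it was known when the gene was chosen.

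JUN overexpression with induction gave the lowest SMAD6 and SMAD7 levels of the series relative to vector Dox. Of the 9 members other than ATOH8, 4 were called lower and 1 higher, where 17.2% of all tested genes were called lower and 18.4% higher. The median log2 fold change was -0.50 for the 9 genes and 0.003 for all tested genes. This comparison shares libraries with each induction, so its values follow partly from those given above.

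Between vector Dox and JUN Dox, SMAD6 fell by 2.98 on the log2 scale (SE 0.392, adjusted p = 4.12e-05) and SMAD7 by 0.74 (SE 0.14, adjusted p = 0.00092). ID3 was lower by 1.80 (SE 0.152, adjusted p = 4.95e-07), with 14.9 to 17.3 CPM in JUN Dox against 45.6 to 74.7 CPM in vector Dox. BMP4 fell by 1.86 (SE 0.33, adjusted p = 0.000573), and all 3 JUN Dox libraries, at 0.426 to 0.864 CPM, lay below the lowest vector Dox library at 2.01 CPM. BMP2 was higher by 0.57 (SE 0.208, adjusted p = 0.0464) although the groups overlapped. The BMP2 call was lost in 8 of the 12 fits with a library left out, and only those without vector EtOH replicates 2 or 3, vector Dox replicate 3 or JUN Dox replicate 1 kept it. Its adjusted p was 0.17 without vector Dox replicate 1 and 0.11 in a fit to the compared libraries alone. ID1 was 67.7 to 106 CPM in vector Dox and 73.3 to 87.1 CPM in JUN Dox (-0.10, SE 0.148, adjusted p = 0.627). SMAD9 at 0.43 (SE 0.174, adjusted p = 0.064) was called only without vector Dox replicate 2 (0.0469) or JUN Dox replicate 3 (0.0336). ID2 (-0.50, adjusted p = 0.335) and BAMBI (-0.37, adjusted p = 0.072) were not called. ATOH8 had a fitted log2 fold change of 4.06 (SE 0.241), from 0.180 to 0.436 CPM up to 4.06 to 5.33 CPM.

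Ordered by group, the levels formed distinct patterns. ATOH8 was highest in JUN EtOH (mean 16.8 ± 1.02 CPM), then vector EtOH (6.01 ± 0.147), JUN Dox (4.87 ± 0.704) and vector Dox (0.288 ± 0.132), with no overlap between any neighbours. ID1 formed a high pair, vector EtOH (275 ± 33.7 CPM) and JUN EtOH (263 ± 16.7), and a low pair, vector Dox (83.6 ± 19.9) and JUN Dox (78.0 ± 7.84), and the libraries overlapped within each pair. SMAD6 was highest in vector EtOH (3.10 ± 0.528 CPM), intermediate and overlapping in vector Dox (1.36 ± 0.319) and JUN EtOH (1.17 ± 0.0648), and lowest in JUN Dox (0.160 ± 0.0949). SMAD7 had the same order of groups, except that JUN EtOH (8.85 ± 1.46 CPM) stood above vector Dox (7.77 ± 0.183) with overlap. ID3 was highest in vector Dox (57.6 ± 15.2 CPM) and vector EtOH (43.5 ± 2.59), while JUN Dox (16.5 ± 1.4) and JUN EtOH (16.4 ± 0.641) could not be ordered.

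As a description of shared pattern, each gene's log2 CPM was centred on its own mean and compared with that of 11403 genes of at least 5 CPM over the 12 libraries. The genes closest to ATOH8 were FPR1, a formyl peptide receptor (root mean square difference 0.472 log2 units), CYP1B1, a cytochrome P450 induced through the aryl hydrocarbon receptor (0.473), and the lipoxygenase ALOX15B (0.552). ATOH8 itself had an SD of 2.15 log2 units over the libraries, so these differences were small beside its span. The genes closest to ID1 were CEBPB, a leucine zipper transcription factor (0.204), the spermine oxidase SMOX (0.216) and the metallothionein MT1X (0.223), beside an SD of 0.929 for ID1. Among the members the closest pair was SMAD7 and BAMBI at 0.344 log2 units. BAMBI was called in no comparison, and this measure is also small between genes that vary little. None of the 10 members was in the study's list of YAP-induced genes or in its list of YAP and TAZ targets, which hold 407 (in 434 entries) and 196 distinct gene IDs. The first list was made of induced genes, so a gene that falls on induction has no place in it. Both lists are small beside the 23459 genes of the count table, so this absence is not a result about the members.

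The wider pathway was read from a list of 64 further genes, of which 40 passed the filter. Induction of vector cells called 5 of the 40 higher and 5 lower, and these 10 calls became 5 without vector EtOH replicate 3 and 6 without vector Dox replicate 3. In JUN cells, induction called 6 higher and 2 lower. JUN overexpression called 9 higher and 3 lower without induction, and 11 higher and 4 lower with it. In this order the calls were 25%, 20%, 30% and 37.5% of the tested genes of the list. Over all tested genes, induction called 15.6% higher and 14.4% lower in vector cells, and 11.2% and 10.3% in JUN cells. JUN overexpression called 20.1% higher and 18.9% lower without induction, and 18.4% and 17.2% with it. The list thus stood near or below the background in each comparison. The interaction called none of the 40 with edgeR, where 5 of them and 1330 of the 14775 tested genes had an unadjusted p under 0.05. DESeq2 called CRIM1 alone (-0.71, adjusted p = 0.0207).

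Of 12 further BMP and GDF ligand genes 4 passed the filter and none was called in any comparison with edgeR or DESeq2. In vector cell induction with edgeR, 2 of the 4 had an unadjusted p under 0.05, as had 5921 of the 14775 tested genes. BMP6 was the most abundant of them at 15.3 to 24.5 CPM in the group means. Of the receptors, BMPR2, the type II BMP receptor, was lower on induction of vector cells (log2 fold change -0.51, SE 0.159, adjusted p = 0.024). The BMPR2 call was lost without vector EtOH replicates 1 or 3 or vector Dox replicates 1 or 3 (adjusted p up to 0.1), and in a fit to the compared libraries alone (0.0642). In both JUN comparisons, named here after their values were seen, BMPR2 was higher, by 0.73 without induction (SE 0.158, adjusted p = 0.0023) and by 0.92 with it (SE 0.159, adjusted p = 0.000469). The type I receptor gene ACVR1 was higher in JUN EtOH than in vector EtOH (0.74, SE 0.138, adjusted p = 0.000831), and the co-receptor gene RGMA was lower (-2.40, SE 0.374, adjusted p = 0.000188). RGMA was also lower in JUN Dox than in vector Dox (-2.16, SE 0.405, adjusted p = 0.000902).

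Of the 6 extracellular antagonists tested, 3 were called higher and 0 lower on induction of vector cells, where 15.6% of all tested genes were called higher and 14.4% lower. CRIM1, a transmembrane protein that binds BMPs, rose by 1.91 on the log2 scale (SE 0.14, adjusted p = 1.22e-07), from 144 ± 14.2 to 542 ± 102 CPM, and belongs to the study's list of YAP-induced genes. FSTL3, a secreted follistatin-like protein that binds activins and BMPs, rose by 1.16 (SE 0.129, adjusted p = 8.54e-06). The third was FST, the gene of follistatin, named here after its value was seen (0.99, SE 0.36, adjusted p = 0.0491). This FST call was lost in 9 of the 12 fits with a library left out, all but those without vector EtOH replicate 2 or JUN EtOH replicates 2 or 3 (adjusted p up to 0.189). It was also lost with RLE factors (0.0514), upper-quartile factors (0.0652), the GC correction (0.0557) and the compared libraries alone (0.104). In JUN cells CRIM1 rose by 1.20 (SE 0.137, adjusted p = 2.16e-05). CRIM1 was lower in JUN Dox than in vector Dox (-0.48, SE 0.136, adjusted p = 0.0125), a call lost without vector Dox replicate 2 (0.0638) and in a fit to the compared libraries alone (0.0603). FST was higher in JUN EtOH than in vector EtOH (1.20, SE 0.356, adjusted p = 0.0158, up to 0.0795 without vector EtOH replicates 1 or 3 or JUN EtOH replicate 2). FST rose again on induction of JUN cells (0.98, SE 0.303, adjusted p = 0.0311, up to 0.117 without JUN EtOH replicates 1 or 3 or JUN Dox replicates 1 or 3), and it was higher in JUN Dox than in vector Dox (1.19, SE 0.307, adjusted p = 0.00794). The antagonist gene NBL1 was lower in JUN cells in both JUN comparisons, at -0.44 without induction (SE 0.133, adjusted p = 0.0176, up to 0.0694 without vector EtOH replicate 2 or JUN EtOH replicates 1 or 2) and at -0.50 with it (SE 0.134, adjusted p = 0.00913).

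SMURF2, a ubiquitin ligase that targets SMADs and receptors for degradation, rose on induction in vector cells by 1.57 (SE 0.111, adjusted p = 8.31e-08) and in JUN cells by 2.02 (SE 0.111, adjusted p = 2.93e-08). Its level went from 33.0 ± 3.45 CPM in vector EtOH to 98.1 ± 7.49 in vector Dox, and from 54.9 ± 1.34 in JUN EtOH to 223 ± 27.1 in JUN Dox. SMURF2 was also higher in JUN Dox than in vector Dox (1.18, SE 0.108, adjusted p = 1.22e-06). TOB2, a member of the TOB family of antiproliferative proteins, was lower on induction of vector cells (-0.53, SE 0.114, adjusted p = 0.00276). Its relative TOB1 was lower in JUN EtOH than in vector EtOH (-0.38, SE 0.122, adjusted p = 0.025, up to 0.125 without vector EtOH replicates 2 or 3 or JUN EtOH replicates 1 or 2). On induction of JUN cells TOB1 was lower by 0.38 as well (SE 0.123, adjusted p = 0.0401), a call lost without any of 6 libraries (JUN EtOH replicates 2 and 3, JUN Dox replicates 1 and 2, and replicate 3 of both vector groups), with an adjusted p of up to 0.142. Named after its values were seen, TOB1 was also called lower on induction of vector cells (-0.34, SE 0.122, adjusted p = 0.0469). The same held for JUN Dox against vector Dox (-0.41, SE 0.123, adjusted p = 0.0177). DESeq2 called both as well (adjusted p = 0.0354 and 0.00847), and the other alternatives were not examined for them.

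RUNX2, an osteoblast transcription factor downstream of BMPs, was 3.76 ± 0.452 CPM in vector EtOH and 13.9 ± 1.82 in JUN EtOH, a rise of 1.89 on the log2 scale (SE 0.202, adjusted p = 5.7e-06). It fell by 1.08 on induction of JUN cells (SE 0.192, adjusted p = 0.00098) and was still higher in JUN Dox than in vector Dox by 1.17 (SE 0.211, adjusted p = 0.00068). Of the 3 E proteins that ID proteins bind, TCF4 was lower on induction of vector cells (-0.67, SE 0.167, adjusted p = 0.00694), while TCF3 and TCF12 were not called in any comparison. HEY1, named after its values were seen because the plot labels it, was called lower in vector cell induction (-2.26, SE 0.742, adjusted p = 0.0317) on 2 to 19 reads per vector EtOH library and 2 to 3 per vector Dox library. The HEY1 call was lost without vector EtOH replicates 1 or 3 or any vector Dox library (adjusted p up to 0.157). The response gene MSX2, also named after its values were seen, went the other way. It was called higher on induction of vector cells (0.51, SE 0.148, adjusted p = 0.0169) and of JUN cells (0.84, SE 0.147, adjusted p = 0.000921). DESeq2 called MSX2 higher in both as well (adjusted p = 0.0141 and 1.58e-05), and the other alternatives were not examined for it.

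**Figure D4:**
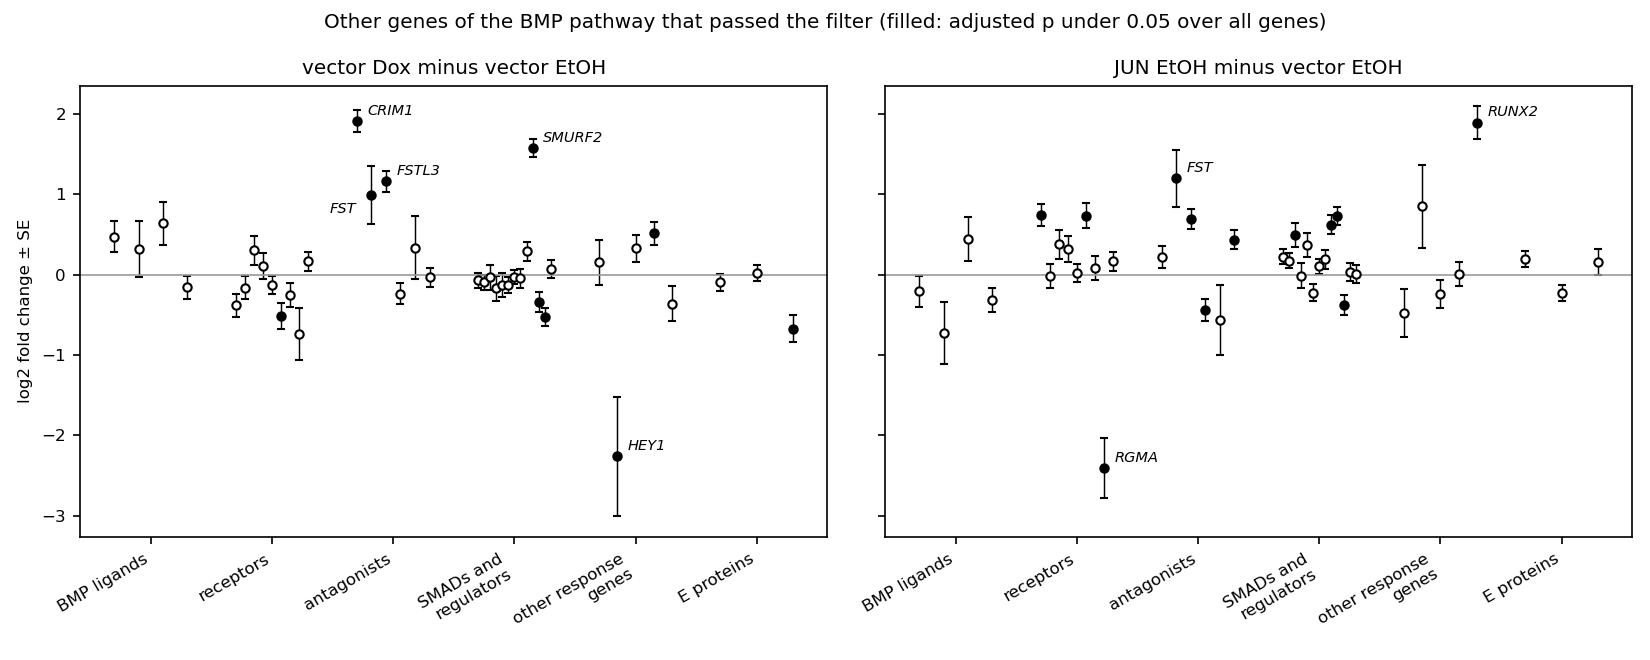
Log2 fold change with SE (y axis) of the 40 tested further pathway genes by role (x axis) for vector Dox minus vector EtOH (left) and JUN EtOH minus vector EtOH (right), filled where the adjusted p over all genes was under 0.05 and labelled where a called change exceeded 0.9. CRIM1, FSTL3 and SMURF2 stand highest on induction, and RUNX2 and RGMA are the extremes of the JUN comparison.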

How the data were processed

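The authors deposited raw counts of single-end poly(A) RNA reads per Entrez gene, with no normalization. The submitters' processing notes name cutadapt 4.2 and Bowtie2 2.3.5.1 on hg19, and per the study's methods counting used countOverlaps. Bowtie2 does not split reads across introns, so junction reads are largely lost in all libraries alike. Neither the annotation nor the use of strand is given in the sources used here.

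Counts were tested with edgeR 4.0.16 (R 4.3.3): TMM factors, filterByExpr by group (minimum count 10, minimum total 15), and a robust quasi-likelihood model over all 12 libraries (biological coefficient of variation 12.5%). P-values were adjusted by Benjamini-Hochberg over 14775 genes and called under 0.05. SE is the absolute log2 fold change over the square root of F. The study's own tool, DESeq2 (1.42.0 here), was an alternative, beside other scaling factors (RLE, upper quartile), no filter, a 5 CPM minimum mean, only the compared libraries, a replicate block, a GC correction and each library left out. The fit was tested on simulated data. Depth sets the precision: a level based on few reads carries counting error beyond its SD, and reads have no molecular identifiers.

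Members and lists were chosen with earlier results of these data known. All members are named in every comparison. From the pathway list, the calls averaging 1 CPM or more are named, the 3 highest and 3 lowest per comparison. HEY1 and FST (induction of vector cells), MSX2 (both inductions), BMPR2 (JUN comparisons) and TOB1 (induction of vector cells and JUN with induction) were added after their values were seen. A further marker gene is not reported here. For likeness, the 3 closest genes of at least 5 CPM to ATOH8 and to ID1 are named. Exon lengths are from GENCODE on GRCh37, and promoters from RefSeq on GRCh38.p14.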

Additional observations from a re-analysis of the deposited data

Results flagged for a closer look

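The response of ATOH8 to YAP5SA induction differed between vector and JUN cells. ATOH8 fell from 5.85 to 6.15 CPM to 0.180 to 0.436 CPM in vector cells and from 15.7 to 17.6 CPM to 4.06 to 5.33 CPM in JUN cells. The interaction term was 2.577 on the log2 scale (SE 0.303), which means a 5.97-fold smaller fall in JUN cells. ATOH8 was chosen with this difference known, so the value is a description and no test result is given for it. The vector Dox level rests on 4 to 10 reads per library.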

How the results depend on the processing

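Of 77 results for members and named pathway genes (MSX2 and the added TOB1 comparisons not included), 51 were called. None of the called ones changed sign under the alternatives run, and 37 kept their call under all of them. The pathway results were named because they were called, and ATOH8, chosen on its response, is in both counts. These counts are therefore not a rate of calls. Changes of sign were limited to 9 uncalled results. For ID1 in JUN EtOH against vector EtOH, the log2 fold change was 0.0504 with the GC correction and 0.0501 with the replicate block and GC correction. For ID3 on induction of JUN cells it was -0.0085 with DESeq2, -0.00998 with RLE factors, -0.0219 with upper-quartile factors, -0.00123 with no filter, -0.026 with a 5 CPM minimum mean and -0.000497 with only the compared libraries. With a library left out, the log2 values ranged from -0.253 to 0.19 for BMP2 on induction of vector cells, from -0.0349 to 0.0736 for ID3 and from -0.0695 to 0.475 for BMP4 on induction of JUN cells, from -0.127 to 0.0401 for ID1 and from -0.122 to 0.315 for BMP4 in JUN EtOH against vector EtOH, and from -0.232 to 0.115 for ID1 in JUN Dox against vector Dox. The interactions ranged from -0.168 to 0.174 for ID1, from -0.21 to 0.474 for ID2 and from -0.191 to 0.0892 for BAMBI.

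Counts of called members were 8 on induction of vector cells, 5 for JUN without induction and 6 for JUN with induction. They include ATOH8, which was chosen on its response. Over all tested genes these comparisons called 15.6%, 20.1% and 18.4% higher and 14.4%, 18.9% and 17.2% lower. With that 5 CPM minimum the member counts were 4, 3 and 3, since members of low level were then not tested. On induction of vector cells ID3 also lost its call there. With a library left out, the first of these counts ranged from 5 to 8, lowest without vector EtOH replicates 1 or 2. The pathway list on induction of vector cells ranged from 5 to 11 calls against 10, lowest without vector EtOH replicate 3. The interaction called 0 genes of the pathway list, 1 with DESeq2, and 0 to 1 with a library left out. Over all genes, JUN without induction called 5766 genes (3823 to 6765 with a library left out, lowest without JUN EtOH replicate 1), and induction of JUN cells 3168 (2082 to 3861, lowest without JUN EtOH replicate 2). JUN with induction called 5267, and 3439 with only the compared libraries, which are fewer samples. The interaction called 165, 340 with DESeq2 and 97 to 242 with a library left out, lowest without vector EtOH replicate 3. The cause of these shifts was not tested.

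The replicate numbers paired the libraries at most in part. In deviations from the group means, 7 of 18 same-number pairs correlated over 0.1 (range -0.258 to 0.466). Pairs with different numbers ranged from -0.47 to 0.315. Only 4 of 12 libraries correlated best with their own number in all 3 other groups. Whether a number marks libraries handled together was not tested. The replicate block left 8 member calls on induction of vector cells and ended 1 call of the 77 results, that of FST on induction of vector cells (1.02, adjusted p = 0.0518). It called 197 genes in the interaction.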
